A study of Mus musculus with 23 samples.

Results

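10 genes of transcription elongation were followed across B16-F1 melanoma tumors: Cdk9, Ccnt1, Ccnt2, Hexim1, Larp7, Paf1, Ctr9, Leo1, Cdc73 and Supt5. They were taken by gene name, and each name matched 1 row, giving 10 of the 56748 genes listed. Cdk9 had been selected on its high level in PTX_IP against CONTROL_IP in an earlier examination of these data, and the others were added for their place in the same machinery. For that reason PTX_IP against CONTROL_IP is described below without a test for any of the 10.

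The 23 tumors grew from B16-F1 mouse melanoma cells placed under the skin of the right flank of DBA/2J mice aged 6 to 8 weeks. In the intraperitoneal (IP) series, saline was given to CONTROL_IP, pentoxifylline at 60 mg/kg to PTX_IP, norcantharidin at 3 mg/kg to NCTD_IP, and both at these doses to MIX_IP, with 2 tumors in each group. In the intratumoral (IT) series the drugs were injected into the tumor at the same doses, with DMSO in CONTROL_IT, and the groups held 4 tumors (CONTROL_IT), 3 (PTX_IT), 4 (NCTD_IT) and 4 (MIX_IT). Treatment lasted 8 days in both series. Route, vehicle and the labelled batch coincide and cannot be told apart. Pentoxifylline is a methylxanthine that inhibits phosphodiesterases, and norcantharidin is a demethylated form of cantharidin, an inhibitor of protein phosphatases. Every tumor holds implanted cells together with host tissue, so fewer cells of a type and less RNA per cell cannot be told apart. The labels give separate tumors but do not say more about their origin, so p-values measure the spread between these samples.

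RNA polymerase II pauses shortly after it starts a gene, held by the factors DSIF and NELF. The kinase CDK9, joined to cyclin T1 (Ccnt1) or cyclin T2 (Ccnt2) as P-TEFb, phosphorylates the polymerase tail, DSIF and NELF and so releases it. Much of the P-TEFb of a cell is held inactive in a particle of the 7SK RNA, in which HEXIM1 blocks the kinase and LARP7 stabilises the RNA. The PAF1 complex (Paf1, Ctr9, Leo1, Cdc73) then travels with the polymerase, and Supt5 encodes the large subunit of DSIF.

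Total counts ran from 2861578 to 6702374 per tumor, with a median of 4013068. Levels are given as CPM, the count of a gene scaled to its library size after trimmed mean of M values (TMM) normalisation over all tumors. All 7 melanocyte lineage markers had counts in 23 of 23 tumors, and Dct averaged 13199 CPM. The libraries of MIX_IT tumor 23 and NCTD_IT tumor 18 were least like the rest, with median correlations of 0.867 and 0.898 with the other tumors. Sex-linked transcripts split the IT groups: Xist stood between 5.19 and 13.6 CPM in NCTD_IT and between 1.28 and 11.6 in PTX_IT, but between 0 and 0.566 in CONTROL_IT and at 0 in all 4 MIX_IT tumors. Ddx3y, on the Y chromosome, went the other way, from 0 to 0.294 CPM in NCTD_IT against 1.03 to 8.98 in CONTROL_IT. The sex these transcripts report and the drug therefore cannot be told apart in NCTD_IT and PTX_IT against CONTROL_IT, whereas MIX_IT and CONTROL_IT were alike in this respect. In the IP series CONTROL_IP tumor 2 had Xist at 8.26 CPM and Ddx3y at 0.451, while the other tumors had Xist at 0 and Ddx3y from 3.28 to 14.1 CPM, so the 2 controls of every IP comparison differed from each other. The design text describes the animals as matched for sex.

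Ccnt2 and Larp7 were the members called between groups, so the bases before their starts are shown from the RefSeq promoter table, which held 9 of the 10 genes. The table is of the GRCm38.p6 build, and both windows matched GRCm39, the build of the count table, at 1 place. The Ccnt2 window is chr1:127701651-127701900 on the plus strand, directly before the annotated gene. The Larp7 stretch is chr3:127347018-127347248 on the minus strand and stops before the first exon of Larp7 in the GENCODE annotation, which begins 19 bases ahead of the gene start in the count table. Capitals mark matches on either strand to the GC box motif GGGCGG, to the motif CCAAT and to the cAMP response element TGACGTCA.
Ccnt2: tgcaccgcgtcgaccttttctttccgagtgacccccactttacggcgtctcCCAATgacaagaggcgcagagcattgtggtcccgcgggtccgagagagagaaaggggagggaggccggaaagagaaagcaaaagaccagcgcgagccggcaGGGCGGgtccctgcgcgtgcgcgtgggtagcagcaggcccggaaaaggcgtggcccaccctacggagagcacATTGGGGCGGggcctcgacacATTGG
Larp7: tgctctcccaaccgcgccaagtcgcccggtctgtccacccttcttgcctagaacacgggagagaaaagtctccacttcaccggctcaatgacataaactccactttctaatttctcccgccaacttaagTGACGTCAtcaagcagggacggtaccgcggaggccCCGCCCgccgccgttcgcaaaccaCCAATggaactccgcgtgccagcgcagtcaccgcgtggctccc
In the 250 bases before Ccnt2 there were 2 matches to the GC box and 3 to the CCAAT box, and a CCAAT match on the opposite strand shares 1 base with a GC box. The 250 bases before Larp7 held 2 GC boxes, the second of which runs into the exon and is not capitalised, 1 CCAAT box and 1 TGACGTCA beginning at position -121 from the start. Among 32851 promoter windows of the same length, 32.7% held a GC box, 33.9% a CCAAT box and 1.55% TGACGTCA. Neither window held the E box CACGTG (6.02% of windows) or the motif TATAAA (12.4% of windows). The window of Cdk9 lay wholly within an exon of the GENCODE annotation and is not printed. These are matches of letters only.

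Intratumoral norcantharidin was the treatment in which members passed the test: Ccnt2 rose and Larp7 fell. The 4 CONTROL_IT tumors held Ccnt2, the cyclin T2 gene (ENSMUSG00000026349, chromosome 1, 127701901 to 127735798), at 35.5, 41.8, 44.9 and 49.8 CPM. The 4 NCTD_IT tumors held it at 85.5, 130.7, 92.0 and 82.4 CPM, so the groups did not overlap. The log2 fold change was 1.18 (SE 0.25, adjusted p = 0.0363, edgeR quasi-likelihood test), a 2.27-fold higher level. Larp7 (ENSMUSG00000027968, chromosome 3, 127330363 to 127346998) stood at 70.3, 56.1, 81.9 and 61.1 CPM in CONTROL_IT. In NCTD_IT it read 33.6, 27.3, 38.0 and 24.3 CPM, each below every control tumor. Its log2 fold change was -1.13 (SE 0.25, adjusted p = 0.0414, edgeR).

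**Figure D1:**
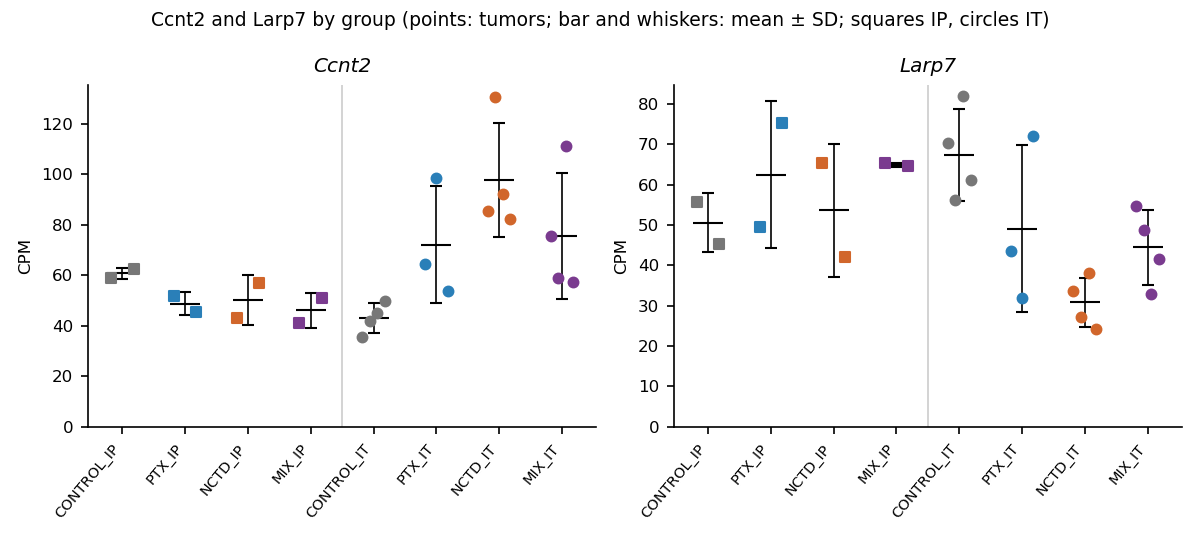
CPM of Ccnt2 (left) and Larp7 (right) in each tumor by group, with the group mean and SD as bars, squares for IP and circles for IT. All 11 drug-treated IT tumors lay above the 4 CONTROL_IT tumors for Ccnt2, and the 4 NCTD_IT tumors, from 24.3 to 38.0 CPM, held the lowest Larp7 group mean. The share of all genes that separated in this way was not computed.

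The means of the other IT groups lay between these. Ccnt2 read 64.4, 98.3 and 53.7 CPM in PTX_IT and 75.4, 58.8, 110.9 and 57.1 CPM in MIX_IT, so that all 11 drug-treated IT tumors exceeded all 4 controls. Neither difference passed the test: the log2 fold change was 0.74 in PTX_IT (SE 0.26, adjusted p = 0.785, edgeR) and 0.81 in MIX_IT (SE 0.25, adjusted p = 0.197, edgeR). CONTROL_IT had the lowest Ccnt2 mean of the 8 groups, at 43.0 CPM. The share of all genes whose treated IT tumors lay wholly to 1 side of CONTROL_IT was not computed. Larp7 read 43.5, 31.9 and 71.9 CPM in PTX_IT, which overlaps the controls, with a log2 fold change of -0.45 (SE 0.27, adjusted p = 0.809, edgeR). MIX_IT tumors held Larp7 at 54.6, 48.7, 33.0 and 41.5 CPM, below the lowest control at 56.1, with a log2 fold change of -0.60 (SE 0.24, adjusted p = 0.309, edgeR). Without PTX_IT tumor 15 the PTX_IT values were 0.46 for Ccnt2 and -0.22 for Larp7, and without PTX_IT tumor 16 they were 0.90 and -0.85. The pair differed in opposite senses, and the count ratio of Ccnt2 to Larp7 ran from 0.505 to 0.815 in CONTROL_IT, from 2.42 to 4.78 in NCTD_IT and from 1.21 to 3.36 in MIX_IT.

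The calls for both genes rested on most of the tumors. Leaving out 1 tumor of the pair of groups at a time gave log2 fold changes of 1.02 to 1.27 for Ccnt2 (adjusted p 0.0385 to 0.121) and -1.23 to -1.01 for Larp7 (adjusted p 0.0444 to 0.127). Both calls were lost without CONTROL_IT tumor 9, 11 or 12 or NCTD_IT tumor 17, 18 or 19 (0 members called in each), Larp7 alone was lost without NCTD_IT tumor 20, and both were kept without CONTROL_IT tumor 10. With Xist (log2 CPM) added to the model, Ccnt2 had a log2 fold change of 0.31 (adjusted p = 0.930, edgeR) and Larp7 one of 0.28 (adjusted p = 0.910, edgeR). Neither call held and Larp7 changed sign. Xist did not overlap between the groups, at 0 to 0.566 CPM in CONTROL_IT and 5.19 to 13.6 in NCTD_IT. This fit therefore cannot separate Xist from the drug, and no conclusion is drawn from it. In DESeq2 on the 2 groups alone Ccnt2 and Larp7 were both called, at adjusted p = 2.01e-05 and 0.00015.

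Several whole-library measures differed on average between NCTD_IT and CONTROL_IT, as Ccnt2 and Larp7 did. Malat1, a nuclear long non-coding RNA, ran from 76.3 to 96.5 CPM in CONTROL_IT, from 279 to 693 in NCTD_IT, from 155.6 to 497.6 in MIX_IT and from 74.2 to 424.4 in PTX_IT. Over the 23 tumors, on log2 CPM centred on each route, the correlation of Ccnt2 with Malat1 was 0.88 and that of Larp7 with Malat1 was -0.93, as descriptions over tumors that share groups and depth. Within IP these correlations were 0.62 and -0.57, and within IT 0.90 and -0.97. The summed CPM of 79 cytosolic ribosomal protein genes ran from 72129 to 87150 in NCTD_IT and from 93285 to 114470 in CONTROL_IT. Over the 23 tumors its correlation was -0.84 with Ccnt2 and 0.82 with Larp7. Summed fibroblast markers ran from 377 to 1656 CPM in NCTD_IT and from 106 to 361 in CONTROL_IT, and reached 8542 in one MIX_IT tumor. Of these 6 markers, Col1a1, Col1a2, Col3a1 and Dcn had counts in all 23 tumors, Pdgfra in 21 and Lum in 20. Melanocyte lineage markers summed to 19269 to 27151 CPM in NCTD_IT against 26293 to 31953 in CONTROL_IT. Their sum correlated with Ccnt2 at 0.44 within IP and -0.74 within IT, and with Larp7 at -0.34 and 0.53. Endothelial markers summed to 56.4 to 116.0 CPM in NCTD_IT against 24.5 to 51.5 in CONTROL_IT, and the nuclear RNA Neat1 stood at 409 to 802 against 167 to 253 CPM. Mitochondrial genes took 2.47% to 6.32% of counts in NCTD_IT and 2.42% to 2.68% in CONTROL_IT. Of the 4 endothelial markers, Pecam1, Cdh5 and Kdr had counts in all 23 tumors and Tek in 12. Erythroid markers summed to 258 to 1360 CPM in NCTD_IT against 1238 to 6944 in CONTROL_IT. Leukocyte markers summed to 104 to 325 against 24.5 to 215 CPM, and skeletal muscle markers to 6.95 to 242 against 5.41 to 42.5 CPM. Keratinocyte markers summed to 0 to 7.64 against 0 to 0.876 CPM. The part of these measures in the 2 calls was not tested.

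**Figure D2:**
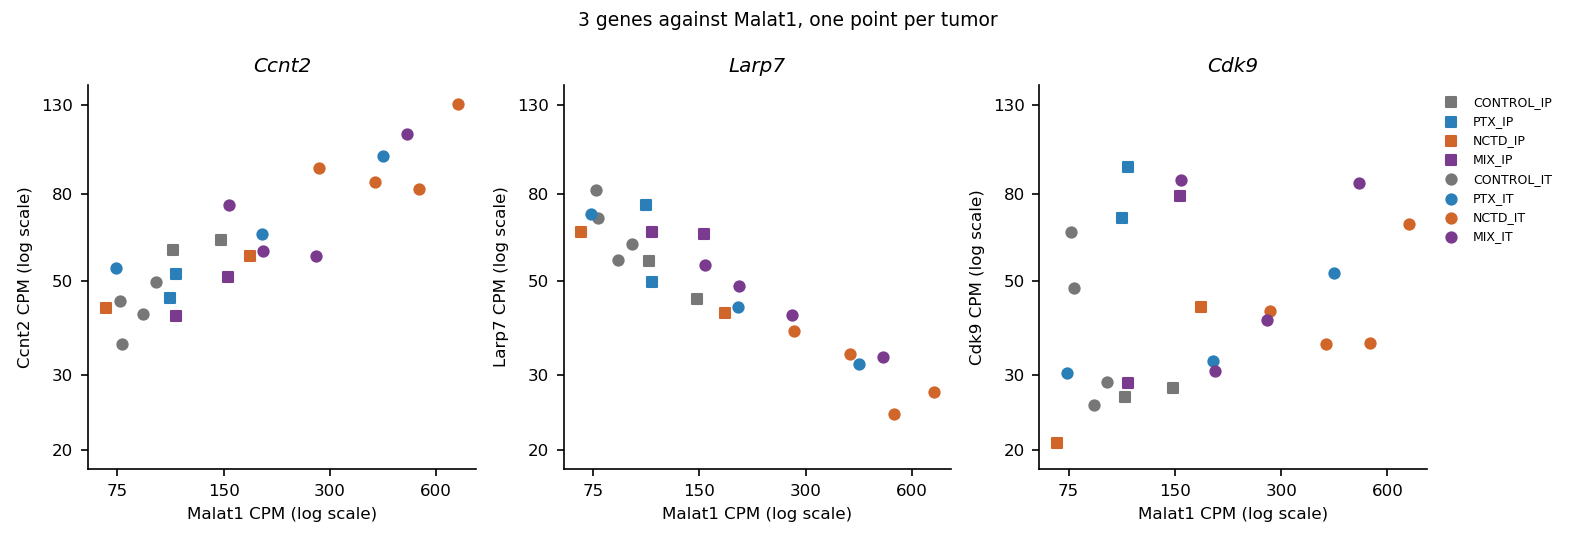
CPM of Ccnt2, Larp7 and Cdk9 against CPM of Malat1, both on log axes, 1 point per tumor, coloured by drug, with squares for IP and circles for IT. Ccnt2 was higher and Larp7 lower in tumors with more Malat1 (r = 0.88 and -0.93), whereas Cdk9 showed a weaker relation (r = 0.28). These r are of log2 CPM centred on each route, while the points are not centred.

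In order of group mean Ccnt2 ran from NCTD_IT (97.7 CPM) through MIX_IT (75.6), PTX_IT (72.1), CONTROL_IP (60.7), NCTD_IP (50.1), PTX_IP (48.7) and MIX_IP (46.1) to CONTROL_IT (43.0). Of these 7 neighbouring pairs 6 had overlapping ranges, the exception being CONTROL_IP and NCTD_IP. Larp7 ran from CONTROL_IT (67.3 CPM) through MIX_IP (64.9), PTX_IP (62.4), NCTD_IP (53.6), CONTROL_IP (50.5), PTX_IT (49.1) and MIX_IT (44.4) to NCTD_IT (30.8), with overlap in all 7 pairs.

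Under IP treatment the same pair did not pass. CONTROL_IP held Ccnt2 at 59.0 and 62.3 CPM, and the treated tumors lay lower, at 51.9 and 45.4 in PTX_IP, 43.1 and 57.1 in NCTD_IP and 41.2 and 51.1 in MIX_IP. For Larp7 the IP tumors read 55.7 and 45.4 CPM in CONTROL_IP, 65.3 and 42.0 in NCTD_IP, 49.6 and 75.3 in PTX_IP and 65.2 and 64.5 in MIX_IP. The difference between routes in the norcantharidin effect was tested directly: it was 1.46 for Ccnt2 (SE 0.39, adjusted p = 0.274, edgeR) and -1.21 for Larp7 (SE 0.41, adjusted p = 0.317, edgeR) on the log2 scale. No member was called there (0% of 13395 genes), while 2 members had an unadjusted p below 0.05, where 10.8% of all genes did. No member was called for the MIX effect either (0% of genes), and 3 members (Ccnt2, Larp7 and Paf1) had an unadjusted p below 0.05 against 7.44% of all genes.

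Cdk9, the kinase itself (ENSMUSG00000009555, chromosome 2, 32595796 to 32603088), was highest on average in PTX_IP. It read 26.6 and 27.9 CPM in CONTROL_IP and 92.7 and 70.3 CPM in PTX_IP. The log2 difference was 1.58 (SE 0.46), and it ranged from 1.36 to 1.75 when any 1 tumor of the 2 groups was left out. Since Cdk9 was selected on this contrast, the value is a description. NCTD_IP tumors held 20.7 and 43.5 CPM and MIX_IP tumors 28.7 and 79.1 CPM, so in each the 2 tumors differed more than 2-fold. These comparisons share with PTX_IP the CONTROL_IP tumors on which Cdk9 was selected, so for Cdk9 they are descriptions only. The log2 fold change was 0.24 in NCTD_IP (SE 0.46) and 0.99 in MIX_IP (SE 0.46), and neither was called. Without MIX_IP tumor 8 the MIX_IP value was 0.10.

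In the IT series Cdk9 did not separate the groups. CONTROL_IT tumors read 48.2, 25.4, 65.0 and 28.9 CPM, PTX_IT tumors 32.3, 52.2 and 30.3, NCTD_IT tumors 35.5, 68.1, 42.5 and 35.7, and MIX_IT tumors 86.5, 30.6, 85.2 and 40.5. Every group held tumors on both sides of the overall median of 40.5 CPM except PTX_IP and CONTROL_IP, and MIX_IT tumors 21 and 23 lay between the 2 PTX_IP tumors. The log2 fold changes were -0.14 in PTX_IT (SE 0.40, adjusted p = 0.959), 0.12 in NCTD_IT (SE 0.37, adjusted p = 0.883) and 0.53 in MIX_IT (SE 0.37, adjusted p = 0.575), all from edgeR. With any 1 tumor left out the MIX_IT value ran from 0.31, without MIX_IT tumor 21, to 0.83, without CONTROL_IT tumor 11. The combination differed from the sum of the single drugs by 0.55 for Cdk9 (SE 0.54, adjusted p = 0.728, edgeR). In order of group mean the levels were PTX_IP (81.5), MIX_IT (60.7), MIX_IP (53.9), NCTD_IT (45.5), CONTROL_IT (41.9), PTX_IT (38.3), NCTD_IP (32.1) and CONTROL_IP (27.3 CPM), and all 7 neighbours in that order had overlapping ranges. The SD of log2 CPM within groups was 0.61 for Cdk9, against 0.17 to 0.36 for the other members apart from Supt5.

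**Figure D3:**
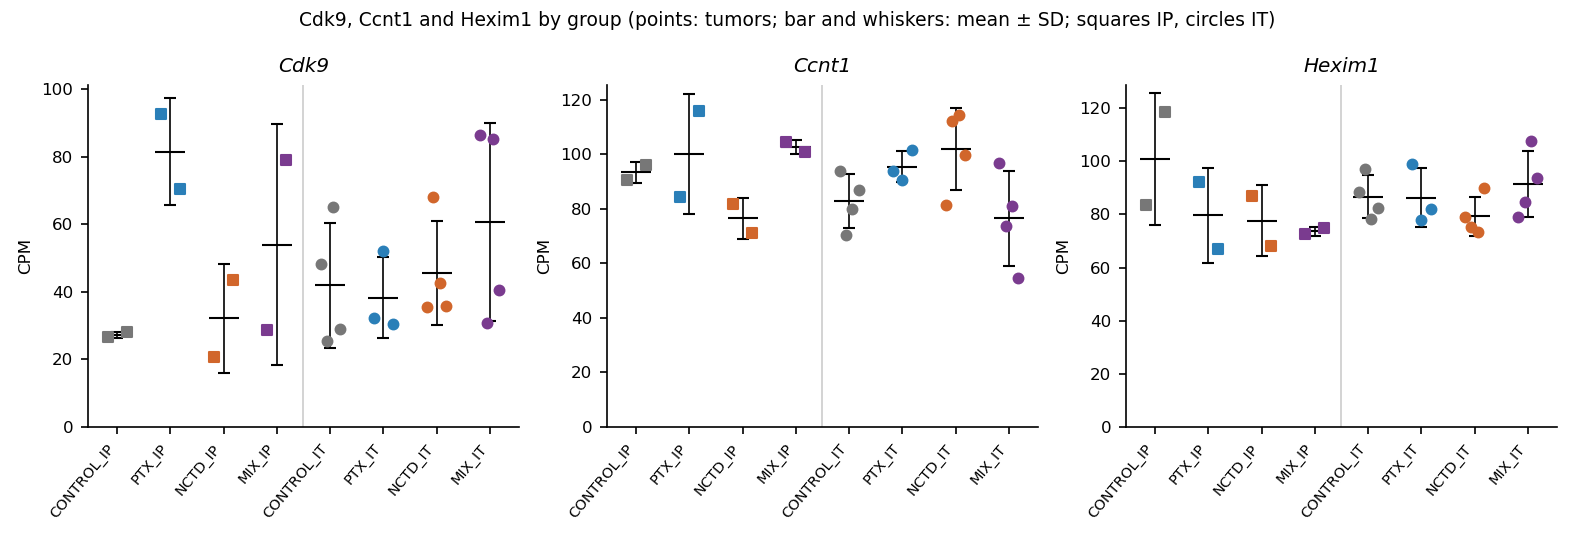
CPM of Cdk9, Ccnt1 and Hexim1 in each tumor by group, with mean and SD as bars, squares for IP and circles for IT. Cdk9 spread from 20.7 to 92.7 CPM, with tumors of MIX_IP and MIX_IT far apart within their group, whereas Hexim1 stayed between 67.0 and 118.5 CPM.

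The remaining genes of the P-TEFb and 7SK group were steadier. Ccnt1, the cyclin T1 gene (ENSMUSG00000011960, chromosome 15, 98436570 to 98468804), ran from 54.6 to 115.8 CPM over all tumors. Its group means ran from 76.5 CPM in NCTD_IP to 102.8 in MIX_IP, and all 7 neighbours in that order overlapped. MIX_IT tumor 24 held the lowest Ccnt1 level, 54.6 CPM, beside 96.8, 73.5 and 81.1 in the other MIX_IT tumors. Hexim1, the kinase inhibitor of the particle (ENSMUSG00000048878, chromosome 11, 103007057 to 103010551), had group means from 73.7 CPM in MIX_IP to 101 in CONTROL_IP. The count ratio of Ccnt2 to Ccnt1 ran from 0.378 to 0.593 in CONTROL_IT, from 0.804 to 1.16 in NCTD_IT and from 0.779 to 1.37 in MIX_IT, so these groups did not overlap the control. Ccnt1 alone differed by 0.30 in NCTD_IT and -0.12 in MIX_IT on the log2 scale, and neither value passed. The count ratio of Cdk9 to Hexim1 was 0.236 and 0.319 in CONTROL_IP and 1.00 and 1.05 in PTX_IP. That is a description only, since Cdk9 was selected on this contrast. Hexim1 alone overlapped there, at 83.5 to 118.5 CPM in CONTROL_IP and 67.0 to 92.2 in PTX_IP. In the IT series the ranges of the ratio overlapped in all 4 groups.

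No difference in the genes of the PAF1 complex passed the test. Paf1 (ENSMUSG00000003437, chromosome 7, 28092376 to 28098813) gives the complex its name. It read 20.4 and 20.1 CPM in CONTROL_IP, 34.3 and 28.6 in PTX_IP, 25.8 and 28.4 in NCTD_IP and 36.5 and 37.9 in MIX_IP, so every treated IP tumor lay above both controls. The log2 fold change was 0.42 in NCTD_IP (SE 0.21, adjusted p = 0.999, edgeR) and 0.89 in MIX_IP (SE 0.21, adjusted p = 0.999, edgeR), and the MIX_IP value stayed between 0.88 and 0.92 with any 1 tumor left out. Its unadjusted p in MIX_IP, 0.00209 (edgeR), ranked 6 among 12424 genes, none of which passed (smallest adjusted p 0.999). DESeq2 gave a similar change of 0.89 a larger SE, 0.35. The IT series did not show the same order: CONTROL_IT tumors read 33.2, 23.4, 23.2 and 25.2 CPM, PTX_IT tumors 16.4, 15.1 and 28.8, NCTD_IT tumors 23.99, 30.2, 25.6 and 17.6, and MIX_IT tumors 11.3, 21.7, 27.2 and 24.3. The difference between routes in the MIX effect on Paf1 was -1.19 on the log2 scale (SE 0.43, adjusted p = 0.612, edgeR).

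Ctr9, the scaffold of the complex (ENSMUSG00000005609, chromosome 7, 110628158 to 110655584), had group means from 33.7 CPM in NCTD_IT to 49.5 in PTX_IP. Leo1 (ENSMUSG00000042487, chromosome 9, 75348806 to 75373714), a subunit that binds RNA and chromatin, read 66.6 and 69.0 CPM in CONTROL_IP and between 36.7 and 58.1 CPM in the 6 treated IP tumors. Its log2 fold change was -0.39 in NCTD_IP (SE 0.22, adjusted p = 0.999, edgeR). Thus Paf1 was higher and Leo1 lower than control in the treated IP tumors, although the controls are the same 2 tumors throughout. This was not particular to them: Ccnt2 lay below both controls in every IP drug group, and several other members did not overlap the controls in 1 or more groups. The share of all genes that did so was not computed. Cdc73, the parafibromin gene (ENSMUSG00000026361, chromosome 1, 143474538 to 143578631), was the steadiest member, with a within-group SD of 0.17 on the log2 scale and group means from 58.6 to 73.0 CPM. Supt5 (ENSMUSG00000003435, chromosome 7, 28014316 to 28038171) gave at most 28 counts in a tumor and none in NCTD_IT tumor 17, where a count of 0 allows up to 0.522 CPM. Differences in Supt5 were not detectable at this depth: the standard errors of its log2 fold changes ran from 0.67 to 0.89 in the 5 tested drug comparisons.

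**Figure D4:**
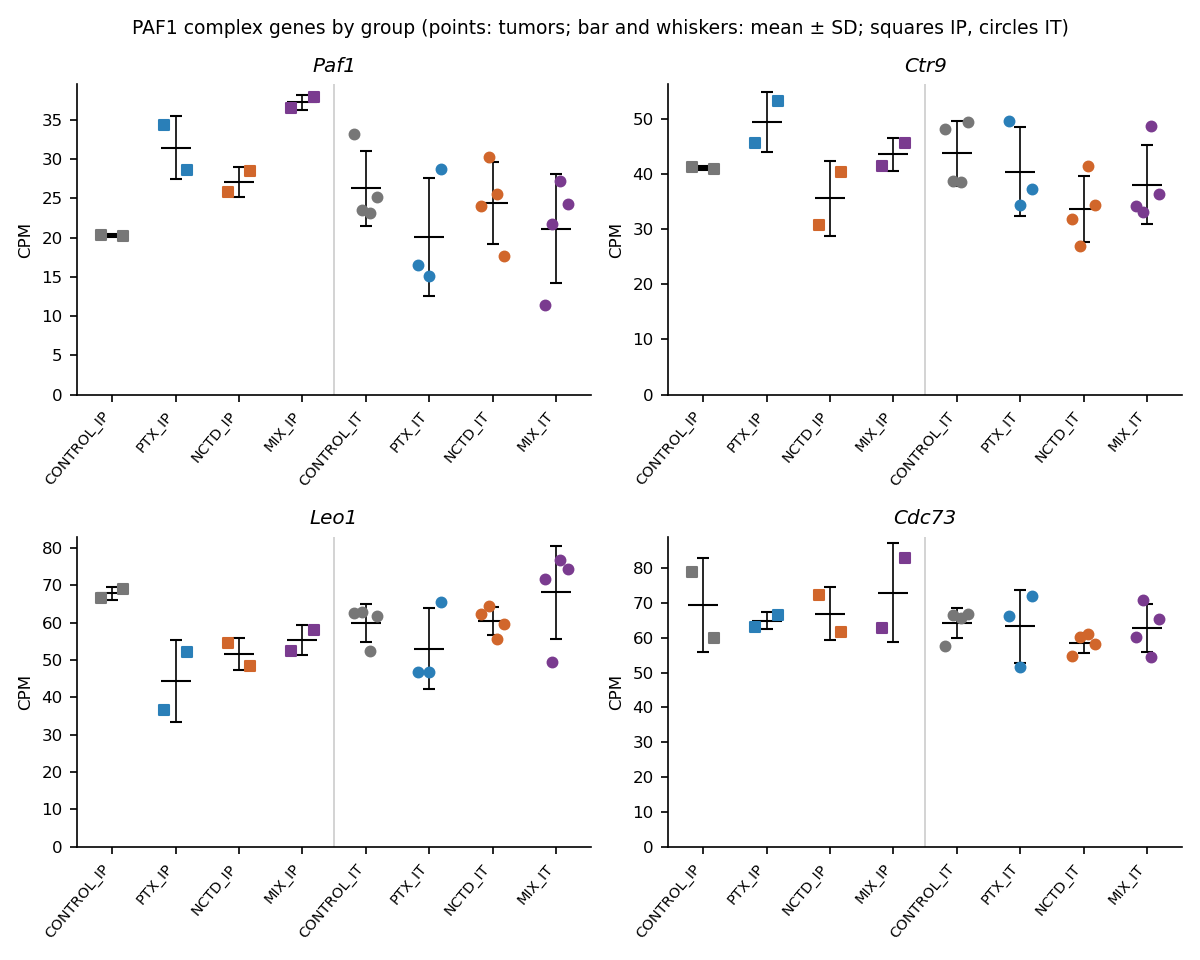
CPM of Paf1, Ctr9, Leo1 and Cdc73 in each tumor by group, with mean and SD as bars, squares for IP and circles for IT. In the IP series Paf1 was above and Leo1 below both CONTROL_IP tumors in all treated tumors, and Cdc73 group means stayed between 58.6 and 73.0 CPM. Ctr9 did not overlap the CONTROL_IP tumors either, lying above them in PTX_IP and MIX_IP and below them in NCTD_IP.

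Counted over the 10 genes, 2 were called in NCTD_IT against CONTROL_IT at an adjusted p below 0.05, where 1.37% of 12480 genes were called, 0.921% higher and 0.449% lower. The same 2 had an unadjusted p below 0.05, where 21.6% of all genes did, and DESeq2 called these 2, where it called 10.6%. In PTX_IT no member was called by edgeR (0% of genes) or DESeq2 (0.0959%), and 1 member, Ccnt2, had an unadjusted p below 0.05 against 6.35% of genes. MIX_IT gave no call by edgeR (0%) or DESeq2 (1.92%), with 2 members, Ccnt2 and Larp7, at an unadjusted p below 0.05 against 13% of genes. No member was called in NCTD_IP by edgeR (0%) or DESeq2 (0.0793%), and 0 had an unadjusted p below 0.05 against 3.59% of genes. For MIX_IP edgeR called no member (0%) and DESeq2 called none of the 9 with an adjusted p (0.138%), and Paf1 was the 1 member with an unadjusted p below 0.05, against 2.94% of genes. The median log2 fold change of the 10 genes lay between -0.12 and 0.12 in these 5 comparisons, and that of all genes between -0.01 and 0.03.

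**Figure D5:**
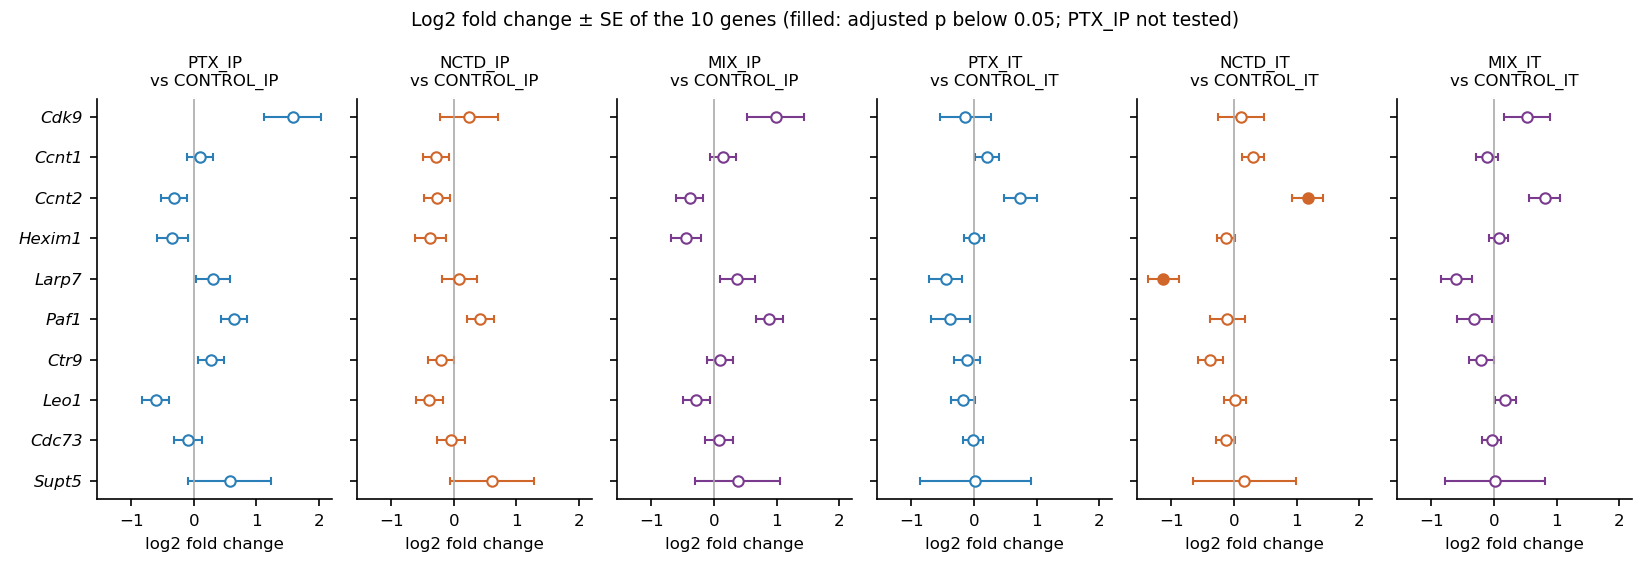
Log2 fold change with its SE for the 10 genes in each drug group against the control of its route, filled where the adjusted p was below 0.05. Filled points are Ccnt2 (1.18) and Larp7 (-1.13) in NCTD_IT, and PTX_IP is drawn without a test.

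Across the 4 IT groups together edgeR called no member (0.024% of genes), and Ccnt2 and Larp7 were the 2 with an unadjusted p below 0.05, where 12.9% of genes were. The test of MIX_IT against the added effects of both single drugs gave no call (0.0401% of genes). There 3 members had an unadjusted p below 0.05 against 11.3% of genes: Ccnt2 at -1.11 (SE 0.36, adjusted p = 0.379), Larp7 at 0.98 (SE 0.36, adjusted p = 0.406) and Ccnt1 at -0.62, all on the log2 scale from edgeR. Between routes, with drug as a term, no member was called (0.366% of genes). Ccnt2 differed in IT by 0.40 on the log2 scale (SE 0.18, adjusted p = 0.326) and Supt5 by -0.88 (SE 0.41, adjusted p = 0.347), the 2 members with an unadjusted p below 0.05, where 13.5% of genes were. Cdk9 differed by 0.05 between routes (SE 0.27), a description only, since this fit holds the PTX_IP and CONTROL_IP tumors on which Cdk9 was selected.

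Beyond these 10, 80 further genes of elongation were listed by complex, and 75 could be tested. In NCTD_IT against CONTROL_IT 1 of the 75 was called higher and 0 lower. That gene was Ier2, an immediate early gene, at 97.9, 135.4, 121.0 and 73.3 CPM against 76.2, 53.7, 61.7 and 48.9 in CONTROL_IT (log2 fold change 0.83, SE 0.20, adjusted p = 0.0487, edgeR), so the ranges overlapped at 1 tumor of each group. Over all genes 1.37% were called. None of the 75, Ier2 included, was called in 6 of 8 edgeR fits that left out 1 tumor (1 was called without CONTROL_IT tumor 10 and 1 without NCTD_IT tumor 20), nor with Xist added to the model. Without the adjustment, 11 of the 75 were higher and 10 lower at p below 0.05, where 21.6% of all genes were below it in either direction. Ier2 belongs to a list of 9 short-lived transcripts drawn up as sensitive to CDK9 inhibition. CDK9 activity was not measured, and the cause of their values below was not tested. All 9 had positive log2 fold changes in NCTD_IT, with a median of 0.78 against 0.03 for all genes, and 1 passed the test. Egr1 differed by 1.94 (SE 0.48, adjusted p = 0.0542) and Junb by 1.30 (SE 0.36, adjusted p = 0.0618) on the log2 scale. The same list had medians of 0.32 in both PTX_IT and MIX_IT, of 0.06 in NCTD_IP and of 0.02 in MIX_IP, with 5 positive and 4 negative genes in each IP comparison.

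No listed partner of the members was called in NCTD_IT by the main edgeR fit, with the 4 groups of a route in one model. Other fits called more of the 75 genes: edgeR called 7 with no filter, 9 with the 2 groups alone and 6 with all 8 groups. DESeq2 called 9. The calls and values below are from the main fit. In the DSIF and NELF list, Supt5 included, 0 of 6 were called and the median log2 fold change was -0.56. Nelfb, a NELF subunit, stood at 15.1, 7.34, 15.9 and 13.9 CPM against 29.9, 27.2, 25.2 and 26.6 in CONTROL_IT, a log2 fold change of -1.05 (SE 0.27, adjusted p = 0.0565, edgeR). Nelfe differed by -0.92 (adjusted p = 0.0615) and Supt4a, the small DSIF subunit, by -0.80 (adjusted p = 0.119). Of 13 subunits of RNA polymerase II none was called: Polr2a, the largest, differed by 0.56 (adjusted p = 0.0603), while 11 of the 13 were negative, among them Polr2i at -0.45 and Polr2e at -0.46. In the super elongation complex 0 of 7 tested genes were called, with Aff1 at 1.24 (adjusted p = 0.103), Eaf1 at -0.50 and Ell2 at 0.82. For the P-TEFb and 7SK list the genes beside the members included Mepce at -0.25 and Hexim2 at 0.09, and for the PAF1 complex Wdr61 at -0.33 and Rtf1 at 0.03, none called. Among 15 other elongation factors Rprd1b (0.61), Setd2 (0.56) and Xrn2 (-0.31) had the smallest p, among 7 kinase module genes Cdk19 (0.63), Ccnh (-0.21) and Med13 (0.14), and among 14 Integrator genes Ints12 (-0.69), Ints2 (0.46) and Ints1 (-0.68), none called. None of the 75 was called in PTX_IT, MIX_IT, NCTD_IP or MIX_IP by edgeR, and 3, 4, 2 and 4 of them had an unadjusted p below 0.05, where 6.35%, 13%, 3.59% and 2.94% of all genes did.

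The members did not vary as 1 block. Over 45 pairs the correlation of log2 CPM, centred on each route, ran from -0.83 to 0.53 with a median of 0.01, and 37 pairs lay within 0.3 of 0. The lowest was Ccnt2 with Larp7, at -0.83 over 23 tumors, -0.78 within IP and -0.84 within IT. Cdk9 had 0.20 with Ccnt1, 0.32 with Ccnt2 and -0.22 with Hexim1, so neither cyclin followed it closely. Cdk9 correlated with Paf1 at 0.61 and with Ctr9 at 0.77 within the 8 IP tumors, but at -0.16 and -0.13 within the 15 IT tumors. Correlations of Cdk9 over the IP tumors or all 23 tumors include PTX_IP and CONTROL_IP, on which Cdk9 was selected. They are descriptions only. With summed fibroblast markers Cdk9 had 0.50. The 5 genes most like Cdk9 over the 23 tumors, among 13394 compared, were Gm47643 (r = 0.73), Clca2 (0.69), Emc3 (0.68), Gm44567 (0.67) and Fibin (0.67). Emc3, a subunit of the membrane protein insertion complex, averaged 115.8 CPM, whereas the others averaged 0.744 to 2.15 CPM, near the level of a few counts. Those most like Ccnt2, chosen after its values were seen, reached higher correlations, led by Rsrp1 (0.94) and Ino80d (0.90), and those most like Larp7 were led by Eif3l (0.92) and Acly (0.91). All these points share libraries and treatment groups.

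Genes that overlap a member took few reads. Cdk9 and Larp7 overlap annotated microRNAs that had 0 counts, the antisense 9330020H09Rik within Ccnt1 had 76 counts against 9018 for Ccnt1, and B3galt2 within Cdc73 had 17 against 6553. Whether the counting used strand is not given in the sources used here, so reads of these pairs cannot be assigned further. The libraries read the 3′ end of transcripts, and isoforms that share an end, such as the longer and shorter forms of CDK9, were counted together.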

How the data were processed

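Tumor RNA from 23 tumors was sequenced with a 3′ mRNA kit. The authors deposited raw counts per gene, aligned with STAR 2.7.11b to GRCm39 after FastQC and Trimmomatic; strand setting, treatment of multi-mapping reads and molecular identifiers are not given in the sources used here. The members and lists were chosen with earlier results of these data known, and PTX_IP against CONTROL_IP was described only. Groups came from the sample labels, and no sample was left out. Counts were tested in R 4.3.3 with edgeR 4.0.16 (TMM, filterByExpr with a minimum count of 10 and total of 15, quasi-likelihood F test, two-sided), with the 4 groups of a route in one model, or all 8 groups for contrasts between routes. Benjamini-Hochberg adjustment ran over all genes tested, with a threshold of 0.05. Fold changes used a prior count of 0.125. Limits for a count of 0 use 3 counts and cover counting error only. Replicates of a group differed by more than sampling noise in all 25 pairs. Scripts were tested on simulated data. Named genes were all members, Cdk9 in each comparison, members past the threshold or else the 2 with the smallest p, and up to 3 genes with the smallest p per list (1 such gene is not reported here); the 5 genes most like Cdk9 were taken by Pearson r of log2 CPM (prior count 2) centred on each route. Alternatives were DESeq2 1.42.0, its size factors, no filter, the 2 groups alone, all 8 groups, Xist as a covariate, and leaving out tumors.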

Additional observations from a re-analysis of the deposited data

Results flagged for a closer look

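Of 30 checks of a single tumor against its group of 4, 2 stood apart, and chance gives about 1 in 20. The checks covered CONTROL_IT, NCTD_IT and MIX_IT, since PTX_IT and the IP groups held fewer than 4 tumors. Leo1 in CONTROL_IT tumor 11 was 52.4 CPM, while the other control tumors lay between 61.7 and 62.9. Cdc73 in CONTROL_IT tumor 9 was 57.7 CPM, with the others between 65.8 and 66.8. Pentoxifylline went with higher Ccnt2 in every IT tumor and lower Ccnt2 in every IP tumor against the control of its route. The log2 ratios of mean CPM differed by 1.06, and this difference was not tested. It was not particular to pentoxifylline: NCTD_IT and MIX_IT tumors also lay above their controls, and NCTD_IP and MIX_IP tumors below theirs. Mean Ccnt2 was 60.7 CPM in CONTROL_IP and 43.0 in CONTROL_IT.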

How the results depend on the processing

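The number of members called in NCTD_IT against CONTROL_IT was 2 and ranged from 0 to 2 over 8 fits that each left out 1 tumor. It was 0 with Xist (log2 CPM) added to the model and 1 (Ccnt2) without NCTD_IT tumor 18 and MIX_IT tumor 23, an alternative chosen after seeing the data. In that last fit Cdk9 in NCTD_IT had a log2 fold change of -0.14 and Larp7 had an adjusted p of 0.0581 (edgeR). With Xist as a covariate the sign also turned for Cdk9 in NCTD_IT (-0.16), Larp7 in NCTD_IT (0.28), Ccnt2 in PTX_IT (-0.018) and Larp7 in PTX_IT (0.68). Xist in NCTD_IT and PTX_IT did not overlap CONTROL_IT, so the fits with Xist cannot separate it from the drug. With every gene of at least 1 count in the model, members called became 1 in MIX_IT (Ccnt2, adjusted p = 0.0453), 2 for any difference among the IT groups and 1 for the norcantharidin effect between routes (Ccnt2). The cause was not tested. Leaving out 1 tumor moved the Cdk9 log2 fold change from 1.36 to 1.75 in PTX_IP, from -0.14 to 0.43 in NCTD_IT, from -0.41 to 0.17 in PTX_IT, from -0.38 to 0.67 in NCTD_IP, from -0.084 to 0.18 between routes, and from -0.56 to 0.49 and -1.02 to 0.44 for the norcantharidin and MIX effects between routes. Other list genes called in NCTD_IT ranged from 0 to 9 over the alternatives. In the IP series a group left with 1 tumor was assumed to vary like the others. No paired analysis was possible because the replicate numbers are unique to each group. The 2 tumors per IP group limit what could be detected there.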
